A study of Mus musculus with 10 samples.

Results

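Messenger RNA of 10 elastic fibre and microfibril genes was compared between left ventricles of mice lacking the melanocortin 4 receptor and of wild type mice. The genes are Fbn1, Eln, Mfap2, Mfap4, Mfap5, Fbln1, Fbln2, Fbln5, Emilin1 and Ltbp2, chosen by symbol. Each of the 10 matched 1 row, through its RefSeq accessions, in a table of 24160 gene rows. The MC4R-/- group holds 6 libraries and the WT group 4. The tissue of both groups was the posterior wall of the left ventricle. Animals were 30 weeks old, of strain C57BL6/J, from crosses of heterozygotes, and were housed at 24 °C. The receptor is a G-protein-coupled receptor known for hypothalamic control of food intake, and the title of the study links its loss to dilated cardiomyopathy. Neither sex nor the construct of the null allele is in the labels. They also leave unsaid whether every library is a different mouse, so p-values cover the variation among these libraries, which may be technical.

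Elastic fibres let blood vessels, valves and the connective tissue of the heart stretch and recoil. Fibrillin forms long microfibrils outside the cell, small glycoproteins attach to them, and tropoelastin is deposited on this scaffold with the help of fibulins and emilins before lysyl oxidases crosslink it. Latent TGF-beta binding proteins are relatives of the fibrillins and sit on the same microfibrils. In the ventricle the producers are mainly fibroblasts and vascular smooth muscle cells, so these transcripts are minor ones in a tissue dominated by the RNA of cardiomyocytes.

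The libraries held 4145033 to 6425785 reads assigned to genes, with the lowest number in WT replicate 3. Values are normalized counts, that is, reads per gene divided by a size factor of the library and not by gene length. Mc4r itself had 4 reads over the 6 MC4R-/- libraries and 2 over the 4 WT libraries, so it checks no label. Summed over 9 cardiomyocyte markers the level was 371313 to 446448 in MC4R-/- and 413768 to 450817 in WT. Of the MC4R-/- libraries only replicate 5 (446448) reached the WT range, and replicate 3 was lowest. Of the 9 markers 1 had a higher mean log2 value in MC4R-/-, against 48.4% of all genes tested. None had an unadjusted p below 0.05 by limma, against 9.6% of all genes in either direction. In the MC4R-/- group replicate 5 stood apart with 3418 normalized counts over 6 atrial genes, against 515 to 1364 in the other 9 libraries. Of these genes Nppa alone was 396 to 1360 in MC4R-/- and 499 to 1332 in WT. Myl7 was 720 in MC4R-/- replicate 5, 134 in replicate 6, 63.0 in replicate 2 and 8.71 in replicate 3. It was 48.1 in WT replicate 1 and at most 1.38 in the remaining libraries. Atrial Myl7 was thus not limited to MC4R-/- replicate 5. In the WT group replicate 2 stood apart with 453 normalized counts over 8 lymphocyte genes, against 13.2 to 31.7 in the other 9, and with 134 normalized counts of the X-linked Xist, against 0 to 7.92. Its Y-linked Ddx3y was at 340.3, against 387 to 483 in the other 9, so every library of both groups held Y-linked RNA. Where leaving out either or both changed a call, or moved a difference with an unadjusted p below 0.05 by over 1.5 times, the value without them is given.

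Of the 10 genes, 1 passed the test between genotypes. Mfap5, which encodes the microfibril-associated glycoprotein MAGP-2, was higher in MC4R-/- ventricles (limma on log2(normalized count + 1), adjusted over all 14611 genes tested). Over all genes 0.287% passed in this direction, 0.171% in the other and 0.459% in either. The mean log2 value was higher in MC4R-/- for 9 of the 10 genes, with elastin the exception, and their median log2 fold change was 0.25. Over all genes tested the fold change was above 0 for 48.4%, and the median was -0.01. Of the 10 genes 4 had an unadjusted p below 0.05 (Mfap5, Fbln2, Mfap4 and Ltbp2), all with a higher mean in MC4R-/-, against 9.6% of all genes in either direction and 5.19% higher in MC4R-/-. Of the 4, 3 did not pass after adjustment. The groups overlapped in each of the 10 genes. Over all genes tested 2.28% had groups that did not overlap, 1.34% with MC4R-/- higher. In bulk tissue a change in the number of cells of a type and a change in RNA per cell cannot be told apart.

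**Figure D1:**
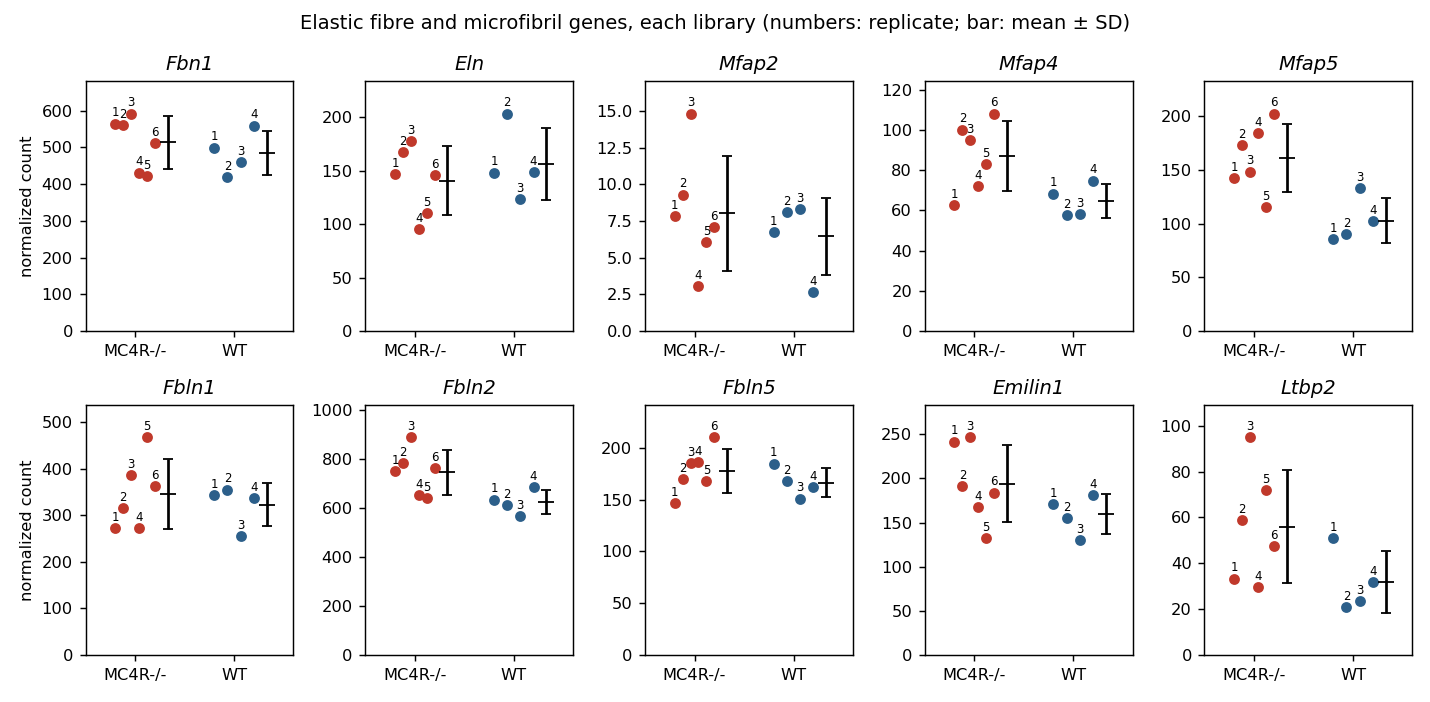
Normalized count (vertical axis, starting at 0) of each gene in each library, MC4R-/- in red (n = 6) and WT in blue (n = 4), with the replicate number above each point and the mean ± SD beside each group. Mfap5 is the 1 gene past the threshold, and MC4R-/- replicate 5 lies below WT replicate 3 in its panel.

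The RefSeq promoter table of GRCm38.p6 held windows of 250 bases before to 50 after the start for 7 of the 10 genes. Those of Fbn1 and Ltbp2, the scaffold and a protein bound to it, and of Fbln2, the gene with the highest level per kilobase, are shown. The 3 genes were all highest in MC4R-/- replicate 3, as were Mfap2 and Emilin1. Capitals mark matches, on either strand, to the GC box GGGCGG. They are Fbn1 at chr2:125506389-125506688 on the minus strand, Fbln2 at chr6:91212514-91212813 on the plus strand and Ltbp2 at chr12:84876442-84876741 on the minus strand. The starts used for these windows are not the outer ends of the gene spans given below. The Fbln2 window lies wholly inside the span of its gene.
Fbn1: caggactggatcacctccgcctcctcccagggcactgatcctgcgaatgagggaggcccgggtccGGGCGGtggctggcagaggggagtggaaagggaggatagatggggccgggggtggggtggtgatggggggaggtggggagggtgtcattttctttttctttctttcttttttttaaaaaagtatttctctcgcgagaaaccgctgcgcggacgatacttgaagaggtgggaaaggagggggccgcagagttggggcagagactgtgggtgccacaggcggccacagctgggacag
Fbln2: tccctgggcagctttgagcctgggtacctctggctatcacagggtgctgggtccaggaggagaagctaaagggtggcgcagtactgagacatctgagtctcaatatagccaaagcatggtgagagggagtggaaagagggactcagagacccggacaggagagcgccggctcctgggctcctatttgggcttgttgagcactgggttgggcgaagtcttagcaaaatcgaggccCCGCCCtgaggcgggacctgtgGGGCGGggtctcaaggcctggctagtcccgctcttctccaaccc
Ltbp2: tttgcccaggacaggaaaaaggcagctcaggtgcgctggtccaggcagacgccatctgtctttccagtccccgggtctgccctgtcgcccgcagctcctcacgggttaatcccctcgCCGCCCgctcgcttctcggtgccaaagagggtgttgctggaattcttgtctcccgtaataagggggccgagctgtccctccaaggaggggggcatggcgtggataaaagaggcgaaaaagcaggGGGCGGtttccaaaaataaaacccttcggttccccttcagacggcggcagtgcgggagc

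The search covered the GC box GGGCGG, the TATA box TATAAA, the CCAAT box CCAAT, the AP-1 site TGANTCA, the TEAD site GGAATG and the SMAD element CAGACA, on both strands. No match overlapped another in these 3 windows. Fbn1 held 1 GC box, 185 bases before the start used for its window, and Fbln2 and Ltbp2 held 2 each. None of the 3 held any of the other 5 motifs. Of the 7 genes with a window 6 held a GC box in at least 1 window, Emilin1 being the exception. The 7 genes had 10 windows in all, and Mfap2, Fbln1 and Fbln5 each also had a window without a GC box. The count per gene is therefore not comparable with the share per window that follows. Of 32851 promoter windows of the same length 35.66% held a GC box, 13.62% a TATA box, 37.41% a CCAAT box, 7.81% an AP-1 site, 14.66% a TEAD site and 21.04% a SMAD element. The G and C content was 60.3% in Fbn1, 60.3% in Fbln2 and 61.0% in Ltbp2, against a median of 52.7% over all windows. A letter match is not evidence of binding.

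Fbn1 encodes fibrillin-1, the backbone of the microfibril and the gene mutated in human Marfan syndrome. It lies on chromosome 2 from 125300594 to 125506485 on the minus strand (GRCm38) and has 66 exons. Its normalized count ran from 422 through a median of 536 to 592 in MC4R-/-, against 499, 419, 459.6 and 559 in WT. The ranges lay almost on top of each other. Its log2 fold change was 0.08, with a 95% interval of -0.13 to 0.29 (limma, adjusted p = 0.856), and it was 0.01 without WT replicate 2 and 0.14 without MC4R-/- replicate 5.

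Mfap5 is on chromosome 6 from 122513584 to 122529290 on the plus strand. Its protein binds fibrillin through a cysteine-rich region and also carries an integrin-binding motif. The 6 MC4R-/- libraries had 142, 172, 148, 184, 115 and 202 normalized counts in replicates 1 to 6, against 85.6, 90.3, 133 and 102 in WT replicates 1 to 4. In all, 5 of the 6 MC4R-/- libraries lay above the highest WT library, and replicate 5 (115) lay below WT replicate 3 (133). The group means were 161 ± 31.5 (SD, n = 6) in MC4R-/- and 103 ± 21.3 (SD, n = 4) in WT. The log2 fold change was 0.64 ± 0.14 (SE; 95% interval 0.34 to 0.94; limma with Benjamini-Hochberg adjustment, adjusted p = 0.0481).

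The call of Mfap5 lay close to the threshold, and its direction was the same in all 22 other settings, with log2 fold changes of 0.56 to 0.77. It passed in 9 of them and missed in 13 (adjusted p 0.00594 to 0.330). It missed by edgeR on recovered reads (adjusted p = 0.0615) and passed by DESeq2 (adjusted p = 0.00878). Leaving out 1 library, the call held only without MC4R-/- replicate 5 (limma, adjusted p = 0.00594) or WT replicate 3 (0.0146). It was lost without any of MC4R-/- replicates 1, 2, 3, 4 or 6 or WT replicates 1, 2 or 4, with adjusted p up to 0.157 (0.0827 without WT replicate 2). Without both libraries that stood apart, MC4R-/- replicate 5 and WT replicate 2, the log2 fold change was 0.67 (limma, adjusted p = 0.00894).

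**Figure D2:**
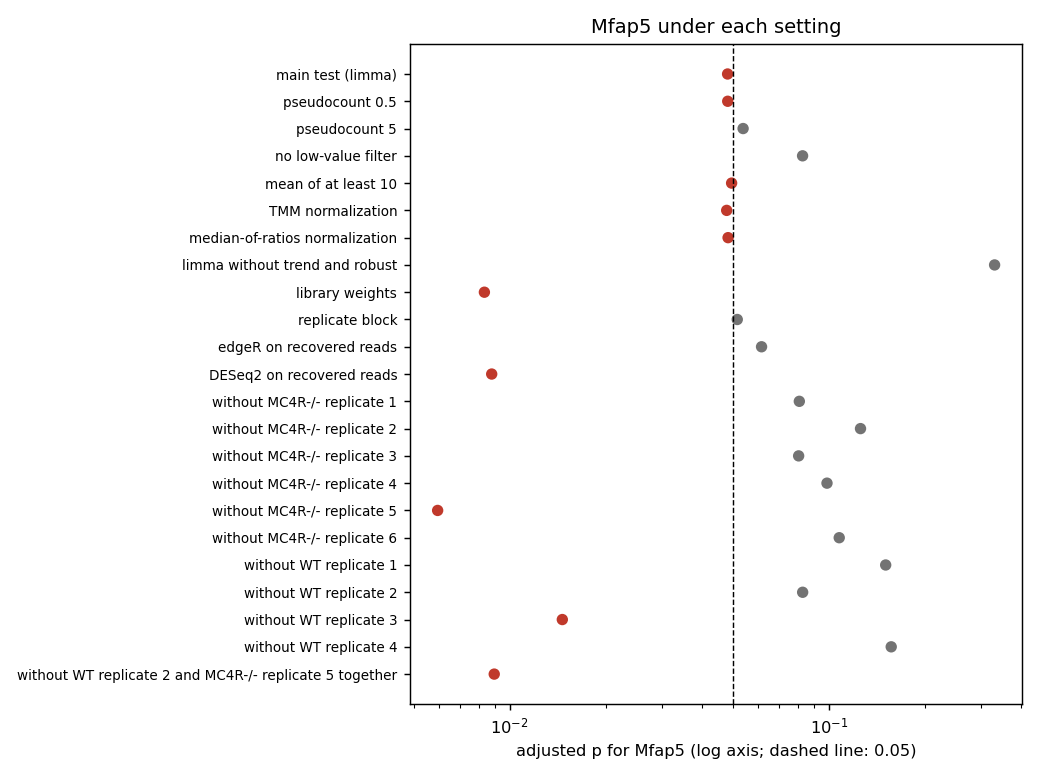
Adjusted p of Mfap5 (horizontal log axis, dashed line at 0.05) in the main test and in 22 other settings (vertical axis), red where it is under 0.05 and grey where it is not. Of the 22 settings 9 lie under the line and 13 beyond it.

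Mfap2 encodes MAGP-1, the close relative of MAGP-2 on the same microfibrils, and was rare in these ventricles with 3 to 17 reads per library. It lies on chromosome 4 from 141010424 to 141015976 on the plus strand. It had 3.05 to 14.8 normalized counts in MC4R-/- with a median of 7.45, against 6.73, 8.12, 8.31 and 2.64 in WT. The groups overlapped almost entirely, and the interval of the log2 fold change, -0.54 to 1.04, was wide (limma, adjusted p = 0.888). The log2 ratio of Mfap5 to Mfap2 averaged 4.26 ± 0.76 (SD, n = 6) in MC4R-/- and 3.87 ± 0.67 (SD, n = 4) in WT, a difference of 0.39 (exact two-sided permutation test over 210 splits, p = 0.490; adjusted over 5 ratios, 0.490). The higher Mfap5 was therefore not shown to differ from the change of Mfap2.

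Mfap4 encodes a secreted protein of the fibrinogen-related family that binds tropoelastin, fibrillin-1 and collagen. It is on chromosome 11 from 61485431 to 61488708 on the plus strand. Its normalized count in MC4R-/- ran from 62.6 through a median of 89.0 to 108, against 68.3, 57.8, 58.1 and 74.8 in WT. Of the 6 MC4R-/- libraries 4 lay above the highest WT library, while replicates 1 and 4 lay within the WT range. Its log2 fold change was 0.40 ± 0.15 (SE; 95% interval 0.09 to 0.71) and did not pass over all genes (limma, adjusted p = 0.329). It passed in none of the 22 other settings (adjusted p 0.235 to 0.708).

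Ltbp2 belongs by sequence to the latent TGF-beta binding proteins but does not bind latent TGF-beta. It binds fibrillin-1. The gene lies on chromosome 12 from 84783212 to 84876558 on the minus strand and overlaps 1 annotated long non-coding gene, D030025P21Rik. Whether the counting used strand is not stated in the labels, so reads of the overlap cannot be assigned. The 6 MC4R-/- libraries had 33.3, 58.9, 94.96, 29.5, 71.9 and 47.5 normalized counts, against 51.0, 20.8, 23.5 and 31.7 in WT. MC4R-/- replicates 2, 3 and 5 lay above every WT library, and the other 3 lay within the WT range.

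Ltbp2 had the largest fold change of the 10 genes and a wide spread, with a coefficient of variation of 44.3% in MC4R-/- and 43.0% in WT. The log2 fold change was 0.77 ± 0.34 (SE; 95% interval 0.03 to 1.51; limma, adjusted p = 0.497), and it was 0.51 without MC4R-/- replicate 5 and WT replicate 2. Relative to Fbn1, its binding partner, the log2 ratio averaged -3.28 ± 0.61 (SD, n = 6) in MC4R-/- and -3.97 ± 0.47 (SD, n = 4) in WT. That difference of 0.69 did not pass (exact two-sided permutation test, p = 0.0952; adjusted over 5 ratios, 0.476; the smallest p possible is 0.00476).

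Eln encodes tropoelastin, the monomer of the elastic core, and was the gene among the 10 with a lower mean in MC4R-/-. It lies on chromosome 5 from 134702595 to 134747368 on the minus strand, has 37 exons and overlaps 1 annotated long non-coding gene, Gm30003, whose reads cannot be told apart either. Its normalized count ran from 95.6 through a median of 146 to 178 in MC4R-/-, against 148, 203, 123 and 149 in WT. No MC4R-/- library reached the highest WT library, replicate 2, and MC4R-/- replicates 4 and 5 lay below the lowest. The log2 fold change was -0.16, with an interval of -0.52 to 0.21 (limma, adjusted p = 0.832), and it was -0.02 without WT replicate 2 and 0.04 without both libraries that stood apart. The log2 ratio of Eln to Fbn1 averaged -1.88 ± 0.16 (SD, n = 6) in MC4R-/- and -1.64 ± 0.41 (SD, n = 4) in WT (exact two-sided permutation test, p = 0.243; adjusted over 5 ratios, 0.490).

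Fbln5, an organiser of elastin assembly that binds tropoelastin, lies on the same chromosome 12 as Ltbp2, from 101746565 to 101819119 on the minus strand. It varied least among the MC4R-/- libraries, with a coefficient of variation of 12.1% there and of 8.48% in WT. Its normalized count ran from 147 through a median of 177 to 210.1 in MC4R-/-, against 185, 168, 151 and 162 in WT. The groups overlapped, and the log2 fold change was 0.09 with an interval of -0.12 to 0.30 (limma, adjusted p = 0.846). The log2 ratio of Fbln5 to Eln differed by 0.25 between MC4R-/- and WT (exact two-sided permutation test, p = 0.310; adjusted over 5 ratios, 0.490).

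Emilin1 encodes a glycoprotein found at the interface of elastin and microfibrils. It lies on chromosome 5 from 30913387 to 30921279 on the plus strand. It had 242, 191, 247, 168, 133 and 184 normalized counts in the MC4R-/- libraries, against 171, 155, 130.1 and 181 in WT. MC4R-/- replicates 1, 2, 3 and 6 lay above every WT library, and replicate 5 lay near the lowest WT library. Its log2 fold change was 0.26 ± 0.15 (SE; interval -0.06 to 0.58; limma, adjusted p = 0.632). Without MC4R-/- replicate 5 it was 0.36 (limma, adjusted p = 0.236).

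The fibulins 1 and 2 are calcium-binding glycoproteins of basement membranes and microfibrils, and both are abundant in embryonic cushion tissue of the heart. Fbln2, on chromosome 6 from 91212460 to 91272540 on the plus strand, had 750.5, 782, 888, 652, 640.2 and 764 normalized counts in MC4R-/-, against 634, 610.2, 565 and 686 in WT. All 6 MC4R-/- libraries lay above the WT mean of 624, and 4 of them lay above the highest WT library. The log2 fold change was 0.25 ± 0.09 (SE; interval 0.08 to 0.43) and did not pass (limma, adjusted p = 0.255). In the 22 other settings it stayed between 0.20 and 0.30 (adjusted p 0.126 to 0.527).

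Fbln1, on chromosome 15 from 85205949 to 85286294 on the plus strand, ran from 272 through a median of 339 to 468 normalized counts in MC4R-/-, against 343, 356, 255 and 338 in WT. The highest value was that of MC4R-/- replicate 5, the library with the most atrial RNA, and without it the log2 fold change was -0.00805 in place of 0.08 (interval -0.24 to 0.41; limma, adjusted p = 0.909). The log2 ratio of Fbln1 to Fbln2 averaged -1.12 ± 0.35 (SD, n = 6) in MC4R-/- and -0.96 ± 0.16 (SD, n = 4) in WT (exact two-sided permutation test, p = 0.419; adjusted over 5 ratios, 0.490). None of the 5 ratios passed, so no member of a pair was shown to change relative to the other.

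**Figure D3:**
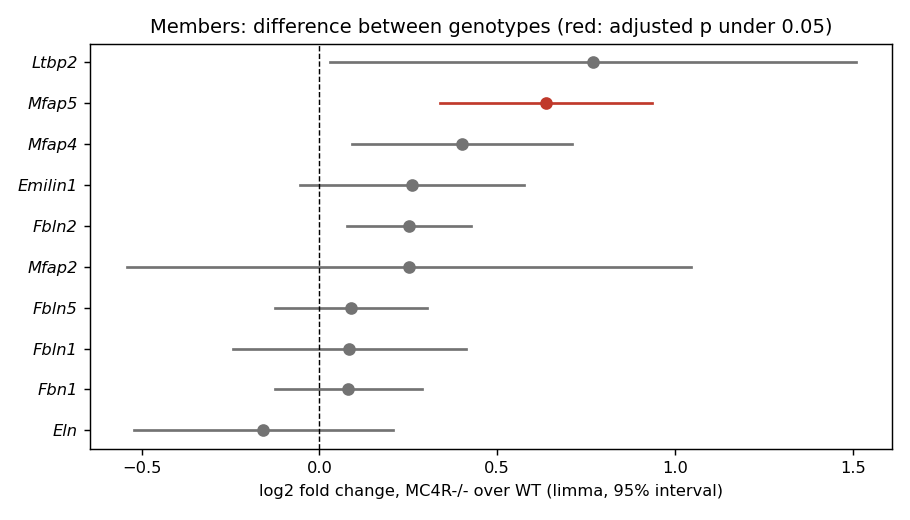
Log2 fold change of each gene, MC4R-/- over WT (horizontal axis), as a point with its 95% interval from limma, in order of size, red where the adjusted p is under 0.05. Mfap5 at 0.64 is the 1 red gene, and Ltbp2 at 0.77 has a wider interval.

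Levels of different genes were compared per kilobase of transcript. In MC4R-/- Fbln2 was highest at 158 ± 19.4 normalized counts per kilobase (SD, n = 6), followed by Mfap5 at 107 ± 20.9 and Fbln1 at 94.6 ± 20.7. In WT Fbln2 was also highest at 132 ± 10.7 (SD, n = 4), followed by Fbln1 at 88.3 ± 12.6 and Mfap5 at 68.2 ± 14.1. The ranges of Mfap5 and Fbln1 overlapped in either genotype, so their order is not set by these data, while Fbln2 lay above both in every library.

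Fbn1, Mfap4, Emilin1 and Eln formed a middle group, at 52.2, 50.4, 50.3 and 36.5 normalized counts per kilobase in MC4R-/- and 49.2, 37.6, 41.4 and 40.4 in WT. Neighbours in this group overlapped in range. Fbln5 followed at 30.5 ± 3.68 in MC4R-/- and 28.5 ± 2.42 in WT. Its range overlapped that of Eln in MC4R-/- (25.2 to 36.0 against 24.8 to 46.1). In WT it lay just below that of Eln (25.9 to 31.7 against 32.0 to 52.7). Ltbp2 (8.48 ± 3.75 in MC4R-/-, 4.81 ± 2.07 in WT) and Mfap2 (8.17 ± 4.00 in MC4R-/-, 6.57 ± 2.69 in WT) were lowest, well under Fbln5 and overlapping each other.

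**Figure D4:**
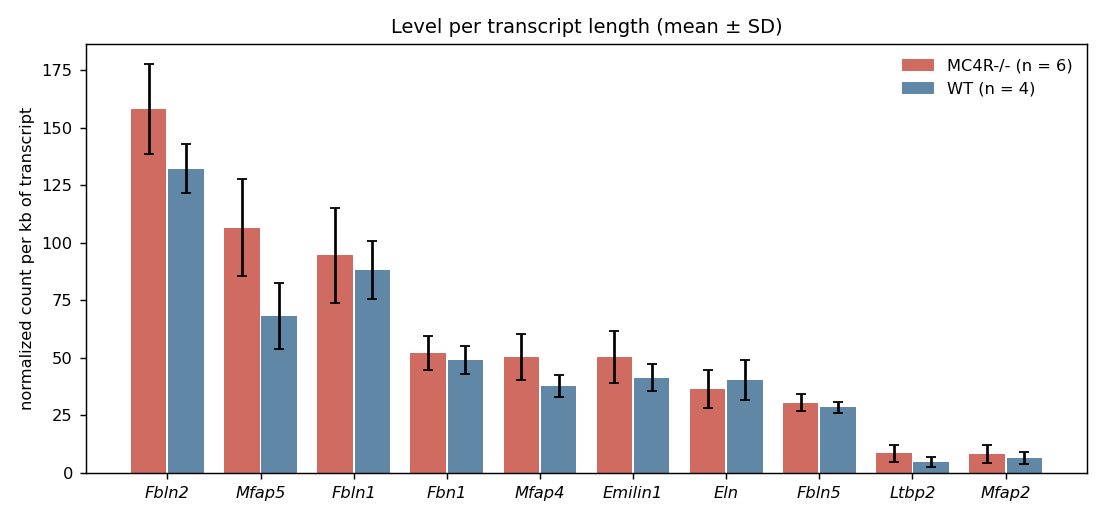
Mean normalized count per kilobase of transcript (vertical axis, starting at 0) with SD for each gene, MC4R-/- in red (n = 6) left of WT in blue (n = 4), ordered by the MC4R-/- level. Fbln2 is highest in either genotype, and Ltbp2 and Mfap2 are lowest.

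Added over the 10 genes, the level per kilobase was 529 to 679 in MC4R-/- with a median of 591, and 462 to 527 in WT with a median of 500.3. The highest values were mostly in MC4R-/- replicates 3 and 6, while the lowest were spread over more libraries. MC4R-/- replicate 3 was the highest of all 10 libraries in Fbn1, Mfap2, Fbln2, Emilin1 and Ltbp2, and MC4R-/- replicate 6 in Mfap4, Mfap5 and Fbln5. MC4R-/- replicate 4 was the lowest in Eln and replicate 1 in Fbln5. WT replicate 3 was the lowest in Fbln1, Fbln2 and Emilin1, and WT replicate 2 in Fbn1, Mfap4 and Ltbp2. WT replicate 1 was the lowest in Mfap5 and WT replicate 4 in Mfap2. MC4R-/- replicate 5 was the highest in Fbln1 and WT replicate 2 in Eln. Without MC4R-/- replicate 3 the median log2 fold change of the 10 genes was 0.13 in place of 0.25, and across all 22 other settings it ran from 0.13 to 0.32.

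Most fibroblast markers had higher means in MC4R-/- as well. Of 12 listed markers 11 had a row of their own, none of them at 0 in any library. Of the 11, 10 had a higher mean log2 value in MC4R-/-, against 48.4% of all genes tested. The summed level of the 11 markers was 12123 to 15019 normalized counts in MC4R-/- and 10368 to 13258 in WT, lowest in WT replicate 3. Most of that sum was 1 gene, Gsn, at 9035 ± 678 in MC4R-/- and 8274 ± 936 in WT, and at 6871 in WT replicate 3. The sum therefore mainly follows Gsn, whose log2 fold change was 0.13 (limma, adjusted p = 0.601). An unadjusted p below 0.05 was reached by 6 of the 11, all with a higher mean (Dpt, Col1a2, Pi16, Cd248, Islr and Mgp). Over all genes tested 9.6% reached it in either direction, and 5.19% with a higher mean in MC4R-/-. The markers that did not reach it were Col1a1 (log2 fold change 0.35), Gsn (0.13), Col3a1 (0.12), Tcf21 (0.09) and Ddr2 (-0.02). Of the 11, Ddr2 was the 1 with a lower mean log2 value. Mgp, which encodes matrix Gla protein, was the 1 marker that passed (1055 ± 147 in MC4R-/-, 730.4 ± 116 in WT; limma, adjusted p = 0.0321). The part of fibroblast RNA in the levels of the 10 genes was not tested.

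Most smooth muscle markers had lower means in MC4R-/-. All 8 were above 0 in every library, 7 of the 8 had a lower mean log2 value in MC4R-/-, and their sum was 1824 to 2418 normalized counts in MC4R-/- and 2111 to 2549 in WT. Most differences were small, with a median log2 fold change of -0.08. Those of Lmod1 (-0.004), Sncg (-0.03) and Tagln (-0.05) were near 0, and the largest were those of Acta2 (-0.45) and Myh11 (-0.26). The limma count was 0. The 1 marker below an unadjusted p of 0.05, against 9.6% of all genes in either direction, was Acta2 (487 ± 113 in MC4R-/- and 658 ± 73.0 in WT). The 10 macrophage markers summed to 2517 to 3097 in MC4R-/- and 2100 to 2603 in WT. Of the 10, 9 had a higher mean log2 value, against 48.4% of all genes tested. Of these 5 had an unadjusted p below 0.05, against 5.19% of all genes with a higher mean in MC4R-/-. The 7 epicardial markers with a row summed to at most 98.8 in any library, and Upk3b, Upk1b, Krt19, Lrrn4 and Krt8 were at 0 in some.

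Outside the 10, the genes whose log2 values over the 10 libraries lay closest to the mean standardised profile of the 10 were Col1a1 (Pearson r = 0.96), Nipsnap3b (0.95), Dct (0.93), Ilrun (0.93) and Smim24 (0.93). These were picked as the highest among all genes tested and all come from the same 10 libraries, so they are a description without a test. Col1a1, the alpha 1 chain of type I collagen, had 428 ± 99.1 normalized counts in MC4R-/- and 332 ± 52.8 in WT (limma, adjusted p = 0.582). Dct encodes dopachrome tautomerase, a melanocyte enzyme, and had 73.1 ± 18.0 in MC4R-/- and 48.0 ± 7.97 in WT (limma, adjusted p = 0.179). Among the 10 themselves, Fbln2 lay closest to the mean of the other 9 (r = 0.91), and Fbln1 (0.28) and Mfap5 (0.29) lay farthest. A profile across 10 libraries also carries their depth and cell content.

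Of 51 other genes tied to elastic fibres (assembly, cell receptors, breakdown and associated matrix), 49 had a row of their own and 46 were tested. Only Bgn passed, which encodes the small proteoglycan biglycan that binds tropoelastin. It had 1621 to 2159 normalized counts in MC4R-/- and 1319 to 1503 in WT, with no overlap (log2 fold change 0.40 ± 0.07; limma, adjusted p = 0.00927), and over all genes 0.459% passed in either direction. In limma the call was lost without trend and robust (adjusted p = 0.254) and with the replicate number as a block (0.0990), and it held in the other 20 of 22 settings. Of the 46, 25 had a higher and 21 a lower mean log2 value, with a median log2 fold change of 0.07. The groups did not overlap in 4 of them, 2 in each direction, against 2.28% of all genes.

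Those 4 were Bgn and Adamtsl5, higher in every MC4R-/- library, and Ltbp1 and Adamtsl4, lower in every one. Adamtsl5, an ADAMTS-like protein that binds fibrillin microfibrils, had 616 to 718 in MC4R-/- and 496 to 591 in WT (limma, adjusted p = 0.139). It passed in 1 of 22 other settings, by DESeq2 (adjusted p = 0.0445). Adamtsl4, whose human mutations displace the lens, had 223 to 315 and 322 to 335 (limma, adjusted p = 0.278). Ltbp1, which anchors latent TGF-beta in the matrix, had 327 to 391 in MC4R-/- and 394 to 415 in WT (limma, adjusted p = 0.505). Adamtsl2, a further microfibril-binding protein of the 8 in this class, had 94.4 ± 21.0 in MC4R-/- and 65.8 ± 19.8 in WT (limma, adjusted p = 0.280). It passed without WT replicate 2 and MC4R-/- replicate 5 together (log2 fold change 0.75 in place of 0.54; adjusted p = 0.0392). Thsd4 had 32.3 ± 8.85 in MC4R-/- and 41.4 ± 1.38 in WT.

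Close relatives of the 10 genes showed no common direction. Of 5 tested fibrillin and fibulin relatives 2 had a higher mean log2 value, among them Efemp2, the fibulin 4 needed for elastin crosslinking, at 54.5 ± 11.7 in MC4R-/- and 45.8 ± 3.14 in WT. Its sister Efemp1 had 83.9 ± 21.5 and 93.3 ± 7.11, and Fbn2 4.51 ± 5.35 and 3.03 ± 3.45. Hmcn1, a very large member of the fibulin family, had 198 ± 25.2 in MC4R-/- and 263 ± 79.9 in WT (limma, adjusted p = 0.601), and it passed as lower without WT replicate 2 (adjusted p = 0.00480) and without both libraries (0.00103). The 3 tested emilin relatives all had lower means. Emilin2 had 224 ± 30.5 in MC4R-/- and 266 ± 26.9 in WT (limma, adjusted p = 0.401), against the higher mean of Emilin1, and Mmrn1 and Mmrn2 had adjusted p of 0.645 and 0.889. The latent TGF-beta binding proteins Ltbp3 (238 ± 24.8 in MC4R-/-, 238 ± 15.1 in WT) and Ltbp4 (2200.3 ± 188 in MC4R-/-, 2097 ± 224 in WT) lay within the spread.

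Of 5 tested genes for crosslinking the limma count was 0. An unadjusted p below 0.05, met by 9.6% of all genes in either direction, was reached by 1 of the 5. That gene was Loxl1, the lysyl oxidase bound to elastic fibres, with 191 ± 31.9 in MC4R-/- and 154 ± 27.9 in WT (limma, adjusted p = 0.416). Lox had 26.5 ± 5.04 and 28.2 ± 6.498, Loxl3 39.1 ± 11.9 and 40.9 ± 6.75, and the copper transporter Atp7a 63.2 ± 10.4 and 73.9 ± 10.1. Among 7 tested elastin-degrading enzymes the membrane-type protease Mmp14 had the smallest p, with 153 ± 17.6 in MC4R-/- and 116 ± 11.7 in WT (limma, adjusted p = 0.135). It passed in limma with library weights (adjusted p = 0.0372), without WT replicate 2 (0.0480) and without that library and MC4R-/- replicate 5 together (0.0134). Mmp2, the gelatinase that Mmp14 activates, had 402 ± 49.1 and 342 ± 48.3 (limma, adjusted p = 0.401), Mmp9 12.8 ± 5.92 and 9.62 ± 4.01, and Ctss 140.4 ± 22.0 and 126 ± 4.22. The elastases Mmp7 and Elane were at 0 in all libraries.

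Of 8 integrin receptor subunits the limma count was 0, with 2 below an unadjusted p of 0.05, against 9.6% of all genes in either direction. Itgb6 had 122 ± 21.3 in MC4R-/- and 89.4 ± 26.8 in WT (limma, adjusted p = 0.343), and Itgb3, which pairs with the alpha v subunit, 18.6 ± 5.52 and 31.8 ± 18.4 (limma, adjusted p = 0.464). WT replicate 2 had 58.7 normalized counts of Itgb3, and without it the log2 fold change was -0.31 in place of -0.65, and -0.16 without both libraries. For Itgb6 it was 0.26 without WT replicate 2 and 0.31 without both, in place of 0.48. Itga5 had 407 ± 33.2 and 369 ± 41.5, and Itgb1 2996 ± 203 and 2864 ± 223. The 7 other matrix genes that associate with the fibres all had higher means in MC4R-/- (48.4% over all genes tested), with a median log2 fold change of 0.31. Beside Bgn these included fibronectin, Fn1, on which fibrillin is assembled (399 ± 24.2 in MC4R-/-, 317 ± 44.9 in WT; limma, adjusted p = 0.0951), Vcan (178 ± 27.6 and 138 ± 33.6) and Svep1 (149 ± 16.5 and 120.2 ± 12.3). Vcan was lowest in WT replicate 2 (88.5), and without it the log2 fold change was 0.18 in place of 0.38, and 0.23 without both libraries.

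**Figure D5:**
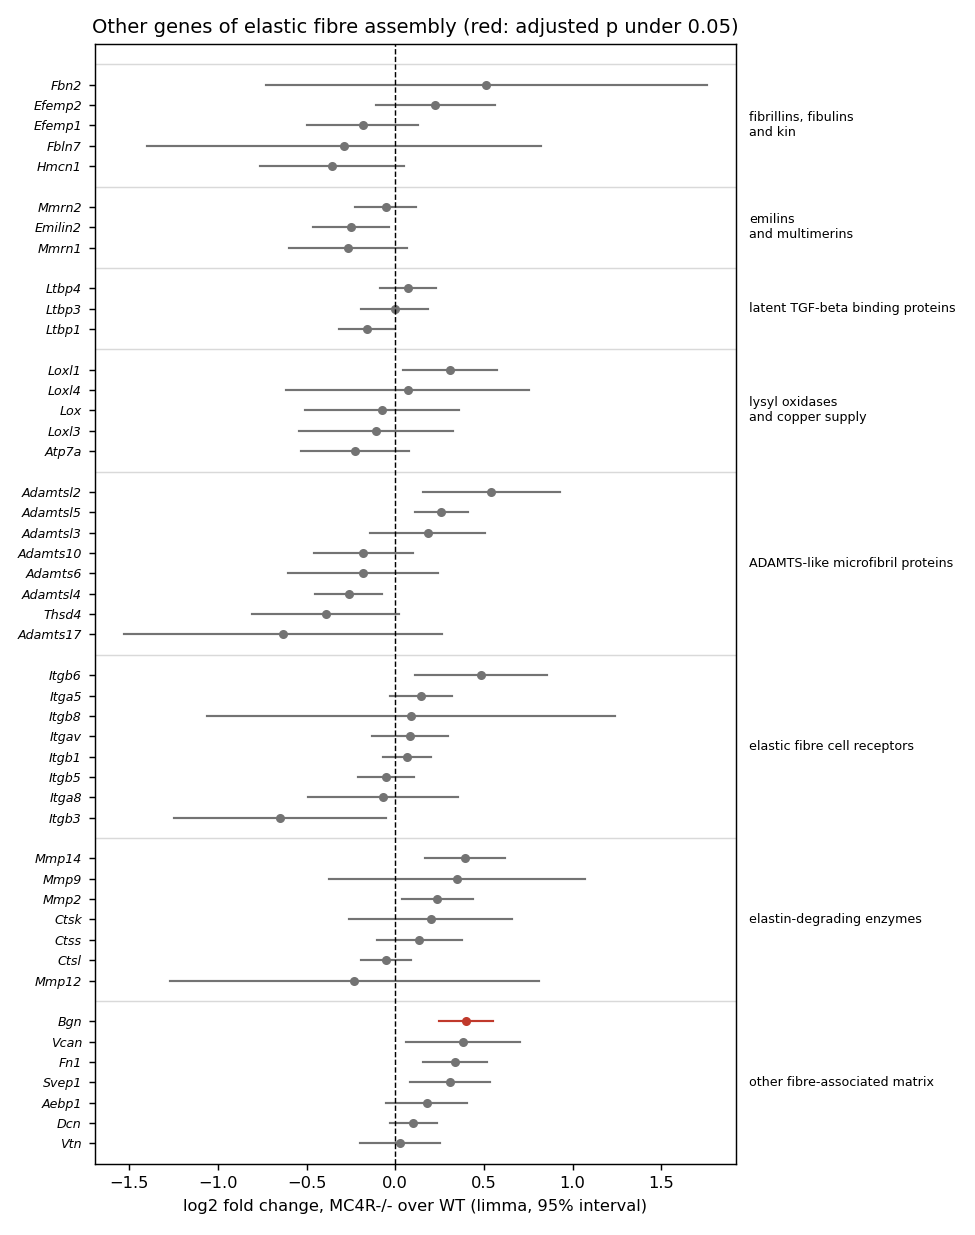
Log2 fold change, MC4R-/- over WT, with its 95% interval from limma (horizontal axis). Shown are the 46 tested other genes of elastic fibre assembly, cell receptors, breakdown and associated matrix, grouped by role. Bgn at 0.40 is the 1 gene in red, with an adjusted p under 0.05.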

How the data were processed

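Per the labels' protocols, libraries of polyadenylated RNA were made with a stranded KAPA kit from 200 ng of total ventricular RNA with an integrity number above 7. The submitters' processing notes name Cuffnorm 2.2.1.1, Cuffdiff 2.2.1.3, Cufflinks 2.2.1, the aligners Bowtie2 and TopHat2 2.1.0, and the build mm10. Which step each served, the annotation and the strand setting were not given in the sources used here. By the authors, signal values were deposited, which their steps show to be read counts divided by a size factor of each library: after division by what 1 read is worth in its library, 99.99 to 100% of values above 0 lay within 0.1 of a whole number. The total was 4145033 to 6425785 reads per library, which limits precision for genes with few reads.

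Groups came from the sample titles. Rows were matched by RefSeq accession to symbols of GRCm38.p6 (24107 of 24160 rows), and transcript lengths came from GENCODE M21, averaged over the accessions of a row. Log2(value + 1) was fitted for all genes with a mean of at least 1 (14611 genes) with limma 3.58.1 in R 4.3.3 (trend and robust, no covariates). P-values are two-sided and were adjusted by Benjamini-Hochberg over all genes, with a threshold of 0.05. Fold changes are MC4R-/- over WT on this scale, which understates the change of low genes. Ratios of 2 genes were compared by exact permutation over 210 splits. Alternatives were other pseudocounts, filters, scalings and variance models, library weights, a replicate block, edgeR 4.0.16 and DESeq2 1.42.0 on the recovered reads (50 and 122 genes passed), and leaving out libraries. The procedure was tested on simulated data. Count models stayed alternatives because the values are not raw counts.

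The 10 genes, the other lists and the tests were chosen with earlier results of these data known. Named genes are the 10, the genes of each other class that passed or had the smallest p (up to 4), and the 5 with the profile most like the mean of the 10. Acta2, Mgp, the other fibroblast markers named with it, Mmp7, Elane, Mc4r, Xist and Ddx3y were named after their values were seen.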

Additional observations from a re-analysis of the deposited data

Results flagged for a closer look

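In a group of 4 to 10 samples, a library was looked at again when its gap to the nearest other exceeded Dixon's critical share of the group's range. This met 12 of 108 groups of values, where chance alone gives about 5%. None of the 10 genes had such a library in its own normalized counts.

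Among ratios, the log2 ratio of Ltbp2 to Fbn1 in WT replicate 1 (-3.27, next -4.10) lay apart from the other WT libraries by 0.82905 of the range, just past the critical share. Among the other genes in MC4R-/-, Efemp2 in replicate 2 (77.5 normalized counts, next 53.8) had a gap of 0.716, Fbn2 in replicate 5 (15.2, next 4.13) of 0.78, Adamtsl2 in replicate 2 (134, next 96.7) of 0.633, and Fn1 in replicate 4, the lowest (351, next 402), of 0.754. In WT, Ltbp1 was highest in replicate 3 (415, next 397) with a gap of 0.863, Ltbp3 lowest in replicate 3 (216, next 242) with 0.842, Mmp14 highest in replicate 2 (134, next 111) with 0.935, and Vcan lowest in replicate 2 (88.5, next 151) with 0.851. Among marker sums, atrial genes were highest in MC4R-/- replicate 5 (3418, next 1018) with a gap of 0.848, epicardial genes in WT replicate 4 (70.4, next 31.7) with 0.935, and lymphocyte genes in WT replicate 2 (453, next 31.7) with 0.962.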

How the results depend on the processing

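The number of genes past the threshold was 67 by limma. Dropping trend and robust from limma gave 0 (1290 had an unadjusted p below 0.05). It was 118 with library weights, 122 by DESeq2, 168 without WT replicate 2 and MC4R-/- replicate 5 together, and 26 to 117 leaving out 1 library (26 without WT replicate 4, 29 without MC4R-/- replicate 2, 31 without WT replicate 3, 37 without MC4R-/- replicate 1, 44 without MC4R-/- replicate 3, 117 without WT replicate 2). The count over the 10 genes, 1 in the main test, was 0 with a pseudocount of 5, no low-value filter, dropping trend and robust, the replicate block and edgeR (with 3 or 4 of the 10 at an unadjusted p below 0.05, and 1 passing by DESeq2), and 0 to 1 leaving out 1 library. The count over the other elastic fibre genes, 1 in the main test, was 0 dropping trend and robust and with the replicate block, 2 with library weights and by DESeq2, 4 without the 2 libraries together, and 1 to 3 leaving out 1 library (3 without WT replicate 2). None of the 5 ratios passed in any of 14 settings (adjusted p 0.159 to 0.839). The causes were not tested.

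Same-numbered libraries did not deviate together (correlations of -0.06 to -0.003 over genes). Correlations over all genes cannot exclude a pairing by number. With the replicate block the adjusted p in limma was 0.0516 for Mfap5 (log2 fold change 0.66) and 0.0990 for Bgn (0.41), 52 genes passed, and the 4 pairs cannot give a ratio an exact p under 0.125.

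Directions turned for small differences that did not pass: Fbln1 with the block (-0.055) and leaving out 1 library (-0.025 to 0.15), Eln without the 2 libraries together (0.040), Mfap2 leaving out 1 library (-0.063 to 0.46), Fbn2 without the 2 together (-0.085) and leaving out 1 (-0.00521 to 1.03), Lox without the 2 together (0.082) and leaving out 1 (-0.21 to 0.037), Ltbp3 without the 2 together (0.011) and leaving out 1 (-0.054 to 0.026), Ltbp4 (-0.00131 to 0.13), Mmrn2 (-0.090 to 0.013) and Loxl3 (-0.20 to 0.019). Depth limits Mfap2, with 3 to 17 reads per library.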
